A study of Schizosaccharomyces pombe with 8 samples.

Results

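The 6 segments that lie 50 to 100 kb from the ends of the 3 chromosomes of fission yeast (*Schizosaccharomyces pombe*) are described by their levels of histone H3 and of its form with lysine 4 trimethylated (H3K4Me3), measured by ChIP-on-chip (immunoprecipitated DNA hybridized to a tiling array). A probe belonged to a segment when its midpoint was 50 to 100 kb from position 1 of a chromosome (left end) or from the end of its last probe (right end). By this rule 996 of 42641 nuclear probes (2.34%) were members, and 844 of them were used after removal of probes marked as outliers on any array. The comparison level was that of the 34005 used probes over 200 kb from both ends of a chromosome. All cells were diploids of 1 strain (PN2159), homozygous for the temperature-sensitive *pat1-114* allele, in which a shift to 34°C inactivates the Pat1 kinase and induces synchronous meiosis, so that meiosis was started by the mutation in every group. In the −N groups cells were depleted of nitrogen and re-fed nitrogen at the shift, and samples were taken after 2 h. In the +N groups cells were kept in nitrogen-rich medium, arrested with the mating pheromone M-factor, released by the shift and sampled after 30 min. Both times mark the start of premeiotic S phase, and the effects of nitrogen, of the pheromone and of the time at 34°C cannot be told apart. Both conditions were measured with both antibodies, on 2 arrays for each of these 4 groups, and each array held ChIP DNA against input DNA.

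The ends of fission yeast chromosomes carry heterochromatin over the telomere-proximal sequences, where H3 is methylated at lysine 9. Further inward, between this heterochromatin and ordinary euchromatin, lies the condensed domain known as the knob, which depends on the shugoshin Sgo2 and holds few of the usual marks of active transcription. H3K4Me3 is deposited by the Set1 complex at the 5′ ends of genes that RNA polymerase II transcribes. The ends of chromosome III differ from those of chromosomes I and II in that they adjoin the ribosomal DNA repeats.

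The segments differed in base composition and gene content, and 6 stretches of them are shown because they are the places where the profiles were lowest or highest. Each is the middle 300 bases of a window of 5 consecutive probes, read from the plus strand of the reference assembly ASM294v3, with runs of 6 or more A or of 6 or more T in capitals. The first is the coding sequence at the window of lowest H3 among all segments, the next 2 are from the windows of lowest H3K4Me3 on the left ends of chromosomes I and II, and the last 3 are from windows of high H3K4Me3 or H3 on the right end of chromosome II and both ends of chromosome III.
I left, in the isp3 coding sequence, chrI:96129-96428: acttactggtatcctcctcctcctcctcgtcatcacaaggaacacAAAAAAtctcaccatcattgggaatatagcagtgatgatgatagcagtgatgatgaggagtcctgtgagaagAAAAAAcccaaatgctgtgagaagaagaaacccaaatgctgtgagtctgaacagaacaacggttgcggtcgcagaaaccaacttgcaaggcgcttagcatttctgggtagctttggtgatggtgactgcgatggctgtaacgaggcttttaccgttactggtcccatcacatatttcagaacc
I left, between the genes shu1 and str3, chrI:87129-87428: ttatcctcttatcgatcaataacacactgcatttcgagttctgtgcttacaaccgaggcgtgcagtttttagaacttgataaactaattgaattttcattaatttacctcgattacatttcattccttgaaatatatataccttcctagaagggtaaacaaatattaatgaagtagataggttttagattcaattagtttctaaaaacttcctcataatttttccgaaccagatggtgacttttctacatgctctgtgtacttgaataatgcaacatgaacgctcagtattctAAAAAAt
II left, between the genes cmt2 and SPBPB21E7.05, chrII:66023-66322: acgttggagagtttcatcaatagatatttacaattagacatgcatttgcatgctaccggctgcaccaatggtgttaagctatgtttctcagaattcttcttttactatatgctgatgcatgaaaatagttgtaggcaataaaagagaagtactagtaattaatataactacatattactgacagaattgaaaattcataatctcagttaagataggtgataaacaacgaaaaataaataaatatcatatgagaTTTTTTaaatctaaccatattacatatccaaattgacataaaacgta
II right, between the genes adn2 and spf38, chrII:4403504-4403803: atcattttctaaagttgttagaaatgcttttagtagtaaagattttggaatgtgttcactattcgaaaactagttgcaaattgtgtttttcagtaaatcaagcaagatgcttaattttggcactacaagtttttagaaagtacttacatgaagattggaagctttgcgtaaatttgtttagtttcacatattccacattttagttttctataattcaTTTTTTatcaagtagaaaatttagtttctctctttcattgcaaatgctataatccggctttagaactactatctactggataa
III left, in the qcr2 coding sequence, chrIII:97347-97646: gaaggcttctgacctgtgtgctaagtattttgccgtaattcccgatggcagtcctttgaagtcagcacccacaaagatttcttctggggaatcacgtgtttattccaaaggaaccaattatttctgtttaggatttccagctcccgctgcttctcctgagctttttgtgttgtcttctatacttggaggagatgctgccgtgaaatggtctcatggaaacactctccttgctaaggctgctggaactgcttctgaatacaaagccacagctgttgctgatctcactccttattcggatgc
III right, in the adn3 coding sequence, chrIII:2345419-2345718: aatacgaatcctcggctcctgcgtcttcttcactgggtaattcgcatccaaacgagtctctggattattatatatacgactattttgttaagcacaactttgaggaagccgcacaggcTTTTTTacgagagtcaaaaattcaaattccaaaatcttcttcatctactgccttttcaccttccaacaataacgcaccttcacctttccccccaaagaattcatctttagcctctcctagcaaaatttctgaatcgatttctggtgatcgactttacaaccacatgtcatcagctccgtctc
Of all 300-base tiles of the annotated segments, 57.5% held a run of AAAAAA or TTTTTT, against 55.2% of the tiles over 200 kb from ends. The share was 64.5% in the left segments of chromosomes I and II, 58.4% in the chromosome III segments and 41.6% in the right segment of chromosome II. The stretches between genes on chromosomes I and II had a GC content of 28.3% to 31.7%, while those in the isp3, qcr2 and adn3 coding sequences had 46.0%, 46.0% and 41.3%.

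The segments were 50 kb long by the rule, but the probes did not cover them equally. They held 159 (I left), 183 (I right), 136 (II left), 145 (II right), 182 (III left) and 191 (III right) probes. The probes of II left stopped at position 91482, and II right had a gap of 5170 bp. The last probe of chromosome II lay 47811 bp before the end of the reference sequence. II right was thus in fact 97811 to 147811 bp from the reference end of the chromosome. III right was 63372 to 113372 bp and I right, by its given coordinates, 62362 to 112362 bp from the reference ends. I right could not be annotated, because probe coordinates there did not match the reference build, and genes and sequences are given for the other 5 segments. These held 15 (I left), 16 (II left), 17 (II right), 22 (III left) and 20 (III right) protein-coding genes, against a mean of 20.6 per 50 kb over 200 kb from ends. Long terminal repeats, the remains of retrotransposons, numbered 6 in each of I left, II left and II right, 0 in III left and 1 in III right, against 0.775 per 50 kb in the interior. GC content was lower in I left (33.3%), II left (32.3%) and II right (35.0%) than in III left (36.2%) and III right (35.9%), with 36.2% in the interior.

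The arrays differed in brightness in a way that bears on low ratios. In the segments, 39.2% (−N) and 29.3% (+N) of probes were well above background in the ChIP channel of the H3K4Me3 arrays of replicate 1, against 90.5% and 91.8% for replicate 2. For H3 the range was 82.1% to 99.1%. Arrays of replicate 1 shared slide 1 and arrays of replicate 2 shared slide 2, so that replicate number and slide are the same. Log2 ChIP over input at the 66 probes for mitochondrial DNA, which holds no nucleosomes, lay between −4.49 and −3.54 relative to the interior on all 8 arrays.

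H3K4Me3 was low in the 4 segments of chromosomes I and II and near the interior level in both segments of chromosome III. The values that follow are means over a segment's probes of log2 ChIP over input, relative to the mean over the probes over 200 kb from ends. In II left they were −1.78 and −2.29 in −N and −1.69 and −2.72 in +N (replicates 1 and 2). I left had −1.67 and −1.84 in −N and −1.50 and −1.88 in +N. In I right the values were −1.28 and −1.37 in −N and −1.27 and −1.49 in +N. All of these array values were far below 0, and those of II left and I left overlapped, while every value of I right was above every value of I left. II right was less low, at −0.66 and −0.71 in −N and −0.59 and −0.71 in +N. III left had −0.05 and −0.03 in −N and 0.06 and 0.17 in +N. III right had −0.02 and 0.18 in −N and 0.05 and 0.36 in +N. The III left and III right values overlapped with each other and lay on both sides of 0, and none of them overlapped with any segment of chromosomes I and II.

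**Figure D1:**
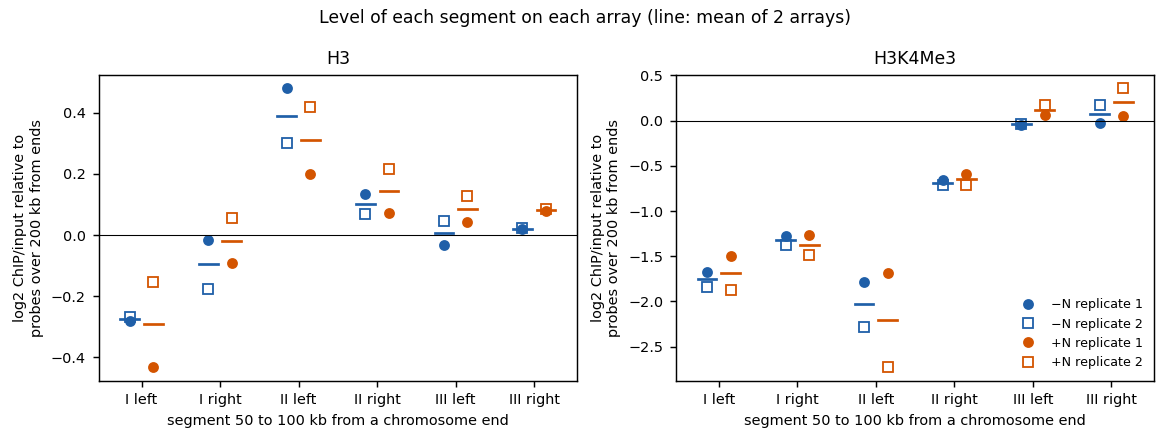
Level of each segment on each array, as log2 ChIP/input relative to probes over 200 kb from ends (vertical axis), for H3 (left panel) and H3K4Me3 (right panel), with filled circles for replicate 1, open squares for replicate 2, and a line at the mean of 2 arrays. H3K4Me3 is at or below −0.59 on all arrays in the 4 segments of chromosomes I and II and between −0.05 and 0.36 in the chromosome III segments. H3 is at 0.20 or more on all arrays only in II left.

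Averaged over conditions, H3K4Me3 differed from the interior by −2.12 (II left), −1.72 (I left), −1.35 (I right) and −0.67 (II right), and limma called all 4 lower, with adjusted p of 0.000235, 2.14e-05, 1.63e-05 and 4.67e-05. Of all 252 bins of 50 kb along the genome, 36.5% were called lower in the same fit, so the call alone does not set these segments apart. By rank, of 228 bins over 200 kb from ends, 227 were higher than each of II left, I left and I right, and 221 were higher than II right. The exception was 1 bin at the centromere of chromosome II, at −2.18, and the 5th and 95th percentiles of these bins were −0.42 and 0.38. III left (0.04, adjusted p = 0.323) and III right (0.14, adjusted p = 0.0837) were not called. III right was called higher with the replicate number as a block (adjusted p = 2.32e-05), without −N replicate 1 (0.19, adjusted p = 0.00848) and without +N replicate 1 (0.22, adjusted p = 5.16e-05), with medians over probes (0.23, adjusted p = 0.0413) and with background-subtracted signals (0.16, adjusted p = 0.0272), all by limma. The last also called III left (0.09, adjusted p = 0.027 by limma). III left moved with the bounds, to −0.40 at 40 to 90 kb and 0.22 at 60 to 110 kb, both called, and II right was at −1.67 when distances were taken from the reference end. Many of the low values are upper bounds. In II left, 23 of 106 probes in −N and 24 in +N had a ChIP signal not well above background on either array. On replicate 1 alone, only 13.2% (−N) and 6.6% (+N) of II left probes were well above background, against 78.3% and 77.4% on replicate 2. In I left the shares on replicate 1 were 19.9% and 11.8%.

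H3 itself varied less and did not follow H3K4Me3. II left had the highest H3 level, at 0.48 and 0.30 in −N and 0.20 and 0.42 in +N. Its mean of 0.35 (limma adjusted p = 0.00224) was above all 228 interior bins. I left had the lowest, at −0.28 and −0.27 in −N and −0.43 and −0.15 in +N. Its mean of −0.28 (limma adjusted p = 0.00343) was below all but 6 interior bins. These 2 segments, both among the lowest in H3K4Me3, thus lay at opposite ends of the H3 range, and their arrays did not overlap. The means of II right (0.12, limma adjusted p = 0.0112) and III right (0.05, limma adjusted p = 0.0298) were called higher. The call at III right was lost whichever array was left out (0.05, limma adjusted p of 0.0519 to 0.228). I right (−0.06, limma adjusted p = 0.204, but −0.10 and 0.0183 without −N replicate 1) and III left (0.05, limma adjusted p = 0.126, but 0.0487 with the replicate number as a block) were not called. At 60 to 110 kb both passed, at −0.24 (limma adjusted p = 0.00361) and 0.07 (limma adjusted p = 0.0458), while I right was at 0.25 at 40 to 90 kb (limma adjusted p = 0.00404). The background in this fit was 36.9% of bins called higher and 29.4% called lower. The calls at II right and III right were lost when medians over probes replaced means, when dim probes were left out, or with bounds of 40 to 90 kb, which also ended the call at I left (−0.11, adjusted p = 0.0575 by limma).

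When the 2 antibodies were set against each other in 1 fit over all 8 arrays, H3K4Me3 minus H3 was −2.47 ± 0.22 (SE) in II left, −1.44 ± 0.10 in I left, −1.29 ± 0.06 in I right and −0.79 ± 0.05 in II right. All 4 were called lower by limma (adjusted p of 6.64e-05 or less), where 37.7% of bins were called lower and 32.9% higher. The low H3K4Me3 values of these segments were therefore not matched by H3 on the same probes. The differences in III left (−0.01 ± 0.04) and III right (0.09 ± 0.07) were not called, with adjusted p of 0.845 and 0.312.

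Within the segments the profiles changed over short distances, and each end had its own course. In I left, H3K4Me3 was −1.32 at 50 to 60 kb, −2.28 at 70 to 80 kb and −1.56 at 90 to 100 kb. H3 in the same segment was 0.23 at 60 to 70 kb and −1.05 at 90 to 100 kb, so that its low mean came from the inner part. In II left, H3K4Me3 stayed between −2.33 and −1.77 in the 4 steps of 10 kb that had enough probes, with H3 between 0.27 and 0.45. I right went from −2.09 in its outermost 10 kb to −0.53 in its innermost for H3K4Me3, and from 0.42 to −0.88 for H3. In II right a step lay inside the segment: H3K4Me3 was −1.84 at 70 to 80 kb and 0.29 at 80 to 90 kb. In III left it went from −0.72 in the outermost 10 kb to 1.14 in the innermost, and in III right it had no such course, with values from −0.31 to 0.82.

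**Figure D2:**
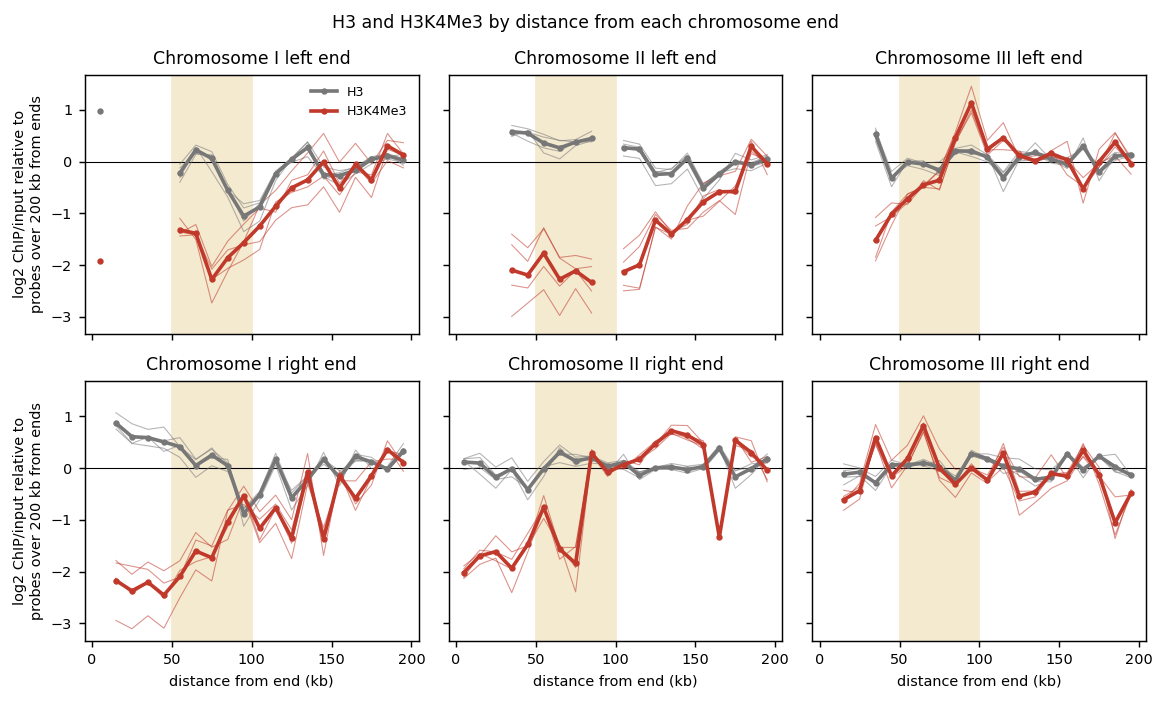
H3 (grey) and H3K4Me3 (red) in steps of 10 kb from each chromosome end (horizontal axis), as log2 ChIP/input relative to probes over 200 kb from ends, with thin lines for the 4 arrays, thick lines for their mean, gaps where probes were too few, and the segments shaded. In II left H3K4Me3 stays between −2.33 and −1.77 in the shaded part, in II right it steps up from −1.84 to 0.29, and in I left H3 drops to −1.05.

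Compared with its neighbours in bins of 50 kb, each segment of chromosomes I and II lay above its outer and below its inner neighbour in H3K4Me3, as did III left. The outer neighbours (0 to 50 kb) of I left, I right, II left and II right had levels of −1.94, −2.31, −2.15 and −1.75. Probes did not cover these outer bins evenly. In I left only the step at 0 to 10 kb (16 probes) had enough probes for the 10 kb profile. The steps with enough probes began at 10 kb in I right and III right and at 30 kb in II left and III left. The inner neighbours (100 to 150 kb) had −0.58, −0.94, −1.49 and 0.40. The segment minus its inner neighbour was −1.14 ± 0.11 (SE) in I left, −0.41 ± 0.06 in I right, −0.63 ± 0.11 in II left and −1.07 ± 0.05 in II right, and limma called all 4 differences, in a genome where 68.3% of 246 adjacent pairs of bins were called. II left was the only one of the 4 that was not called different from its outer neighbour (neighbour minus segment −0.04, adjusted p = 0.599 by limma). In III left the outer neighbour was at −1.25, and in III right at −0.29, and both segments were called higher than these. Their inner neighbours were at 0.20 and −0.26. The segment minus its inner neighbour was −0.16 ± 0.04 in III left and 0.40 ± 0.04 in III right, both called by limma. For H3 the outer neighbour minus the segment was 1.09 ± 0.06 in I left, 0.68 ± 0.04 in I right, 0.22 ± 0.03 in II left and −0.21 ± 0.03 in II right, all called, where 61.8% of adjacent pairs were called.

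Counted as peaks by the criteria of the study's methods (a window at or above a 1.5-fold ratio that exceeded the 8 windows on each side), H3K4Me3 had 2.74 to 3.45 peaks per 100 windows in the segments on the 4 arrays, against 5.19 to 5.35 in the interior. I left had 0 to 2 peaks and II left 0 or 1 on each array, while III left and III right had 7 to 9 each. The share of H3K4Me3 windows at or above 1.5-fold was 0.0% to 0.935% in II left, 0.0% to 4.48% in I left, 7.19% to 15% in I right, 25.0% to 31.7% in II right, 33.3% to 46.7% in III left and 41.5% to 60.2% in III right. The interior had 42.5% to 49.3%. For H3, which had a threshold ratio of 1, there were 4.64 to 5.12 peaks per 100 windows in the segments and 5.16 to 5.30 in the interior. Window values of the 2 replicates correlated across the 840 segment windows with r = 0.90 (H3 −N), 0.84 (H3 +N), 0.92 (H3K4Me3 −N) and 0.90 (H3K4Me3 +N), as a description over windows that overlap and share probes.

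The windows with extreme values fell on a few genes. The lowest H3 of all segments was at *isp3* in I left, a gene for a spore wall protein, whose stretch of sequence is given above. The window had −2.93 and −2.18 in −N and −3.10 and −2.98 in +N, on the scale with each array's median at 0. Of the 20 ChIP measurements behind it, 10 were well above background, so these are in part upper bounds. H3K4Me3 was low there too (mean −1.91), and input DNA was at −0.40. The highest H3 of I left was at *SPAC977.17*, which encodes a channel protein of the MIP (aquaporin) family, with 0.52 and 0.47 in −N and 1.09 and 0.71 in +N. All of its 20 measurements were above background, and its −N and +N arrays did not overlap, although the difference was not called (adjusted p = 0.9997 by limma). The lowest H3 of II left, −0.54 on average, was next to *eno102*, an enolase gene.

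For H3K4Me3 the highest window of each segment separated the ends again. In III left it was the shared upstream region of *rpl35* and *rpl902*, which encode proteins of the large ribosomal subunit, with 3.34 and 3.17 in −N and 3.71 and 4.12 in +N. In III right it was the 5′ part of *adn3*, a transcription factor gene named for adhesion defects, with 3.02 and 3.88 in −N and 3.26 and 4.09 in +N. In II right it was the stretch between *adn2*, of the same gene family name, and *spf38*, a gene for a splicing factor, at 2.21 on average. The highest windows of the left ends of chromosomes I and II reached only 0.33, at *nhe1* (the sodium/proton antiporter also called Sod2), and 0.31, at *fex2* and an L-asparaginase gene. The last of these had 9 of 20 ChIP measurements above background and an input level of −1.80. The lowest windows of all 6 segments lay close together, between −2.56 and −1.90. Only 10 to 12 of the 20 ChIP measurements behind each were well above background, so these values are in part upper bounds. Those of I left and II left are the sequences between genes shown above, and the lowest of III left and III right were in the coding sequences of *SPCC757.04*, a transcription factor gene, and *trm732*.

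**Figure D3:**
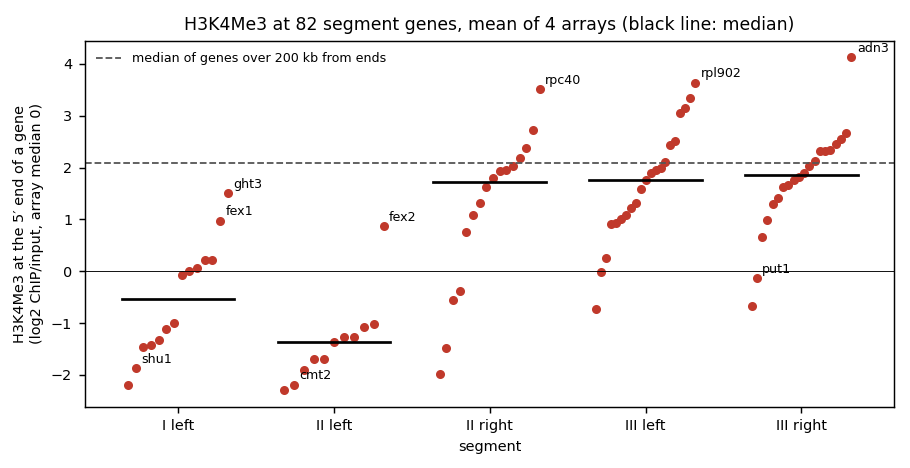
H3K4Me3 at the 5′ end of the 82 protein-coding genes with a value in the 5 annotated segments (1 point per gene, mean of 4 arrays, log2 ChIP/input with the array median at 0; black lines are medians and the dashed line is the median of genes over 200 kb from ends). In I left and II left 1 gene, ght3, is above 1, and the other 3 segments have medians from 1.71 to 1.86 under the dashed line at 2.10.

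A value at the 5′ end, from 250 bp upstream to 750 bp downstream, was obtained for 82 of the 90 protein-coding genes. The 8 without probes included 3 L-asparaginase genes (*SPAC977.12*, *SPBPB8B6.05C* and *SPBPB21E7.09*), the neighbouring transporter genes *SPBPB10D8.04C*, *SPBPB10D8.05C* and *SPBPB10D8.06C*, the retrotransposon *Tf2-11* and the transporter gene *SPCC613.02*. The median H3K4Me3 was −0.53 over 14 genes of I left and −1.36 over 11 genes of II left. It was 1.71 over 16 genes of II right, 1.76 over 21 of III left and 1.86 over 20 of III right, against 2.10 over 3951 genes over 200 kb from ends. Values above 1, a 2-fold ratio, were found at 1 gene of I left, 0 of II left, 11 of II right, 16 of III left and 16 of III right, and at 86.5% of interior genes. Median H3 at the same genes was −0.42 (I left), 0.24 (II left), 0.04 (II right), −0.11 (III left) and −0.15 (III right), against −0.32 in the interior.

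The 3 genes with the highest H3K4Me3 were in II right, III left and III right. *adn3* had 3.44 and 4.13 in −N and 4.27 and 4.67 in +N. *rpl902* had 3.39 and 3.22 in −N and 3.80 and 4.13 in +N. *rpc40*, a subunit shared by RNA polymerases I and III, had 3.53 and 3.46 in −N and 3.12 and 3.95 in +N. The +N arrays were all above the −N arrays at *adn3* and *rpl902* but not at *rpc40*, and none of the 3 differences was called. The lowest genes were all in the left segments of chromosomes I and II. *SPBPB21E7.05* (no known function) had −2.16 and −1.97 in −N and −2.66 and −2.36 in +N. *SPAPJ695.01C*, also uncharacterized, had −2.46 and −2.22 in −N and −1.94 and −2.14 in +N. *cmt2*, a catechol O-methyltransferase gene, had −2.27 and −1.72 in −N and −2.38 and −2.37 in +N. Within the 2 low segments, *ght3* (1.51 ± 0.85, SD over 4 arrays), *fex1* (0.98 ± 0.40) and *fex2* (0.87 ± 0.59) had gene values above the rest. These values reflect short stretches: that of *fex1* rests on 2 probes, and no window of 5 probes in either segment averaged above 0.33. The 3 genes encode a gluconate:proton symporter and 2 fluoride export channels of the plasma membrane, and *fex1* and *fex2* are named here after their values were seen.

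The profile around the 5′ end was present in the segments with reduced height on the left of chromosomes I and II. Averaged over probes from 250 bp upstream to 750 bp downstream, H3K4Me3 was −0.94 ± 0.15 (SD, n = 4 arrays) in the genes of I left and II left, and −1.57 ± 0.36 further inside the same genes, an excess of 0.63 ± 0.21. The excess was 2.02 ± 0.38 in II right, 2.23 ± 0.41 in the chromosome III segments and 2.55 ± 0.40 in the interior. Both parts of the genes in I left and II left were thus low, the 5′ end more so than the body: the body was at −0.95 in II right, −0.47 on chromosome III and −0.63 in the interior. For H3 the 5′ end was lower than the body: the difference was −0.18 ± 0.05 in I left and II left, −0.26 ± 0.09 in II right, −0.30 ± 0.13 on chromosome III and −0.50 ± 0.09 in the interior.

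**Figure D4:**
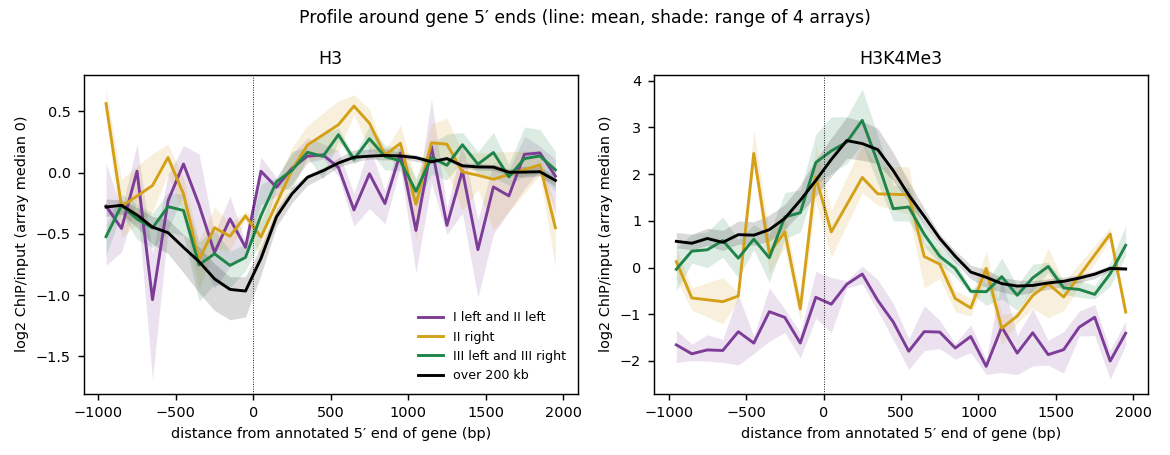
H3 (left) and H3K4Me3 (right) in steps of 100 bp around the annotated 5′ end of genes (horizontal axis, bp), as log2 ChIP/input with the array median at 0; lines are means and shades the range of 4 arrays, for genes of I left and II left, II right, the chromosome III segments, and over 200 kb from ends. At 200 to 300 bp H3K4Me3 reaches −0.14 in I left and II left, 1.93 in II right, 3.15 on chromosome III and 2.66 in the interior.

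Genes for transport through membranes were frequent in the segments. Of the 90 protein-coding genes, 9 (10%) had a product described as a transporter or permease, against 3.11% of interior genes. The 9 include neighbours, such as *SPBPB10D8.04C*, *SPBPB10D8.05C* and *SPBPB10D8.06C*, so the share rests on fewer places than genes. Of the 9, 5 had a value, with a median H3K4Me3 of −0.73 against 1.64 for the 124 interior genes of the list. The cysteine transporter gene *SPBPB10D8.01* of II left was at −1.03, the siderophore transporter gene *str3* of I left at −1.42 and the dipeptide transporter gene *SPCC757.13* of III left at −0.73. Median genes of II left and I left were themselves low, at −1.36 and −0.53. The transporter genes *SPCC757.11C* (1.58) and *SPCC613.01* (1.99) were also in III left, where the median gene was at 1.76. Of the other lists, *put1* (proline dehydrogenase, which lets cells use proline as a nitrogen source) was the only member of 12 nitrogen starvation genes in a segment, and its H3K4Me3 of −0.13 compares with the median of 1.86 in III right. *mug9*, 1 of 91 genes named as meiotically upregulated, was at 2.45. No list member other than *ght3*, which passed with the replicate number as a block, passed a test of +N against −N.

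Between +N and −N no segment was called for either antibody. H3K4Me3 in +N minus −N was 0.07 ± 0.13 (SE) in I left, −0.05 ± 0.09 in I right, −0.17 ± 0.35 in II left, 0.04 ± 0.07 in II right, 0.16 ± 0.06 in III left and 0.13 ± 0.12 in III right. The smallest adjusted p was 0.817 (III left, limma). For H3 the differences ranged from −0.08 ± 0.09 (II left) to 0.08 ± 0.05 (III left), with adjusted p of 0.932 or more. The background was 0.0% of 252 bins for each antibody, with 3 (H3) and 13 (H3K4Me3) bins at an unadjusted p under 0.05. As a single value, the mean over the 6 segments differed by 0.03 for each antibody, with an exact two-sided permutation p of 1.0, where 2 against 2 arrays can give no less than 0.333. With the replicate number as a block, 4.37% of bins were called for H3K4Me3 and 0.0% for H3, none of them 1 of the 6 segments. III left was higher in +N on both slides (0.11 and 0.20) and its arrays did not overlap, and III right was higher on both (0.08 and 0.18) with overlap. Whether the H3K4Me3 and H3 differences differ was tested in the fit of both antibodies: 0.0% of bins were called, with adjusted p of 0.956 or more in the segments.

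II left was the segment that depended most on 1 array. Its H3K4Me3 difference within slide 1 was 0.10 and within slide 2 −0.44. Without +N replicate 1 it was −0.69 (adjusted p = 3.62e-09 by limma), and without +N replicate 2 it was 0.35 (adjusted p = 0.0252 by limma), so that the sign followed the array left out. In both cases the single +N array left was assumed to vary like the other group.

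At finer scale, 840 windows had their middle in a segment and none was called for either antibody, in a genome where 0.0% of 37227 windows were called. In simulated data, 31 of 100 H3K4Me3 windows and 100 of 100 H3 windows with a true 2-fold difference were called. H3K4Me3 differences of this size could thus mostly be missed. The simulated noise was equal for all windows and had no slide effect, so differences in noisier windows could be missed more often. At an unadjusted p under 0.05 there were 15 segment windows for H3 (1.79%, against 2.24% of all windows) and 31 for H3K4Me3 (3.69%, against 4.26%). With the replicate number as a block, 42 segment windows (5.0%) were called for H3K4Me3, 25 higher and 17 lower in +N, against 5.47% of all windows, 2.93% higher and 2.54% lower. The share in the segments was thus near that of the genome. Of the 42, 19 were in I right, 9 in III left, 6 in I left, 5 in II right, 2 in III right and 1 in II left. For H3 the block gave 0 segment windows, against 0.14% of all windows called (0.00537% higher and 0.134% lower in +N), and 43 (5.12%) at an unadjusted p under 0.05, against 4.64% of all windows.

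I right held the windows with the largest differences in H3K4Me3 among windows where both +N arrays lay on the same side of both −N arrays. At chrI:5481992-5482967 (probe coordinates) the values were −0.41 and 0.23 in −N and 0.74 and 1.49 in +N. It was higher in +N by 1.15 (slide 1) and 1.26 (slide 2), and all 20 ChIP measurements were above background. At chrI:5505853-5507767 the −N values were −1.03 and −0.64 and the +N values −1.87 and −2.14, with a difference of −1.17, while H3 in the same window was higher in +N on both slides (0.43 and 0.62). Only 13 of the 20 H3K4Me3 ChIP measurements there were well above background, so its low values may in part be upper bounds. The window with the highest H3K4Me3 of I right, at chrI:5467436-5468593, had 2.10 and 1.87 in −N and 0.97 and 1.27 in +N, with 16 of 20 ChIP measurements well above background. With the block, limma gave these 3 windows adjusted p of 0.000122, 0.00022 and 0.0117. Without the block the adjusted p was 0.974 for each.

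**Figure D5:**
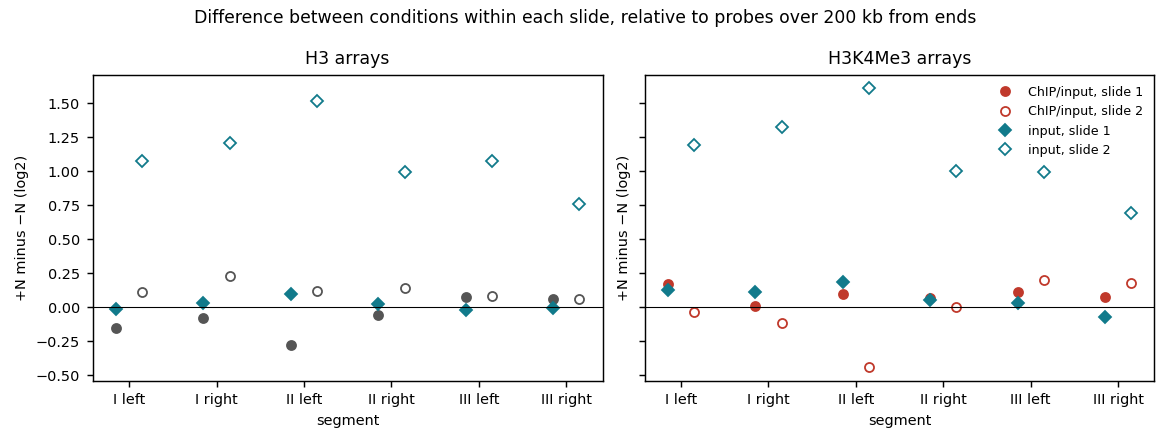
Difference between +N and −N within slide 1 (filled) and slide 2 (open) for each segment, as log2 relative to probes over 200 kb from ends, for ChIP/input (circles) and for input DNA alone (diamonds), on the H3 arrays (left) and the H3K4Me3 arrays (right). ChIP/input differences lie between −0.44 and 0.23, and input differences lie near 0 on slide 1 and between 0.69 and 1.61 on slide 2.

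At the 5′ ends of the 82 segment genes, no gene was called without the block for either antibody (2 of 4276 genes, 0.0468%, for H3K4Me3 and 0.0% for H3 in all). At an unadjusted p under 0.05 there were 0 segment genes for H3, against 1.43% of all genes, and 4 for H3K4Me3 (4.88%), against 4.12%. In simulated data with equal noise for all genes, 28 of 100 genes with a true 2-fold difference in H3K4Me3 were called, and 98 of 100 for H3. With the replicate number as a block, 5 of the 82 (6.10%) were called for H3K4Me3, 2 higher and 3 lower in +N, against 4.75% of all genes (3.84% higher and 0.912% lower), and 0 for H3, against 0.0468%. *ght3* had 1.86 and 2.38 in −N and 0.39 and 1.41 in +N. Its change of −1.22 ± 0.45 (SE of the fit without the block) had an adjusted p of 0.0031 by limma with the block. The SEs of the other genes called are also from the fit without the block. *shu1*, which encodes a protein of heme uptake and neighbours *ght3*, had −2.76 and −2.35 in −N and −0.30 and −2.08 in +N, on a single probe (1.36 ± 0.47, adjusted p = 0.00202 by limma with the block). The −N and +N arrays of both genes did not overlap, and *ght3* was lower in +N. The direction at *shu1* is not settled, since its change was 1.36 on the processed signals but −1.66 with normexp background correction (adjusted p = 0.695 by limma).

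The other 3 were 1 each in I left, II right and III left, and their SEs are again from the fit without the block. With *ght3* and *shu1*, I left thus held 3 of the 5 genes called. *SPAPJ695.02*, an uncharacterized gene of I left, had −0.82 and −0.45 in −N and −1.51 and −1.69 in +N (−0.96 ± 0.43, adjusted p = 0.0267 by limma with the block). *vph2*, for a factor that assembles the vacuolar ATPase, had −0.06 and 1.26 in −N and −1.49 and 0.22 in +N (−1.24 ± 0.49, adjusted p = 0.00269 by limma with the block). *ecl3*, of a family of small proteins that extend chronological lifespan when overproduced, had 0.03 and 0.57 in −N and 0.45 and 2.00 in +N (0.93 ± 0.47, adjusted p = 0.0391 by limma with the block). Only *SPAPJ695.02* had arrays that did not overlap between the conditions, and the call for the other 2 rests on the differences within slides. *nhe1* was higher in +N on both slides for H3K4Me3 (0.89 and 0.83) but was not called with the block (adjusted p = 0.0518 by limma).

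For H3 the largest differences that went the same way in all pairs of arrays were small. *SPBC8E4.05C*, a fumarate lyase gene, had −0.07 and −0.18 in −N and 0.29 and 0.25 in +N. *nhe1* had −0.48 and −0.84 in −N and −0.25 and −0.29 in +N. *meu23*, named for upregulated expression in meiosis, had −0.20 and −0.13 in −N and 0.18 and 0.23 in +N. These 3 were higher in +N on every array, and none was called. *SPBPB10D8.01* had 0.23 and 0.18 in −N and −0.39 and −0.05 in +N, and *SPBPB21E7.02C*, of a phosphoglycerate mutase family, had 0.77 and 0.81 in −N and 0.32 and 0.67 in +N. *SPCC1827.05C* changed by −0.24 ± 0.21, which was not called either.

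Input DNA, by which every ratio was divided, was higher at the segments on 1 array of each antibody. On the H3 array of +N replicate 2 the input level relative to the interior was 1.02 (I left), 1.30 (I right), 1.24 (II left), 0.94 (II right), 1.09 (III left) and 0.70 (III right). On the other 3 H3 arrays it lay between −0.27 and 0.09 in all 6 segments. The H3K4Me3 array of +N replicate 2 had 1.19, 1.48, 1.43, 0.98, 1.00 and 0.60 in the same order, and the other 3 lay between −0.18 and 0.16. No value of +N replicate 2 overlapped with those of the other arrays. The labels do not say whether the H3 and H3K4Me3 arrays of a replicate shared an input preparation. Along I left the H3 array of +N replicate 2 went from an input of 1.18 at 50 to 60 kb to −0.35 at 190 to 200 kb. The other 3 H3 arrays had −0.33 to −0.31 at the first and −0.39 to −0.25 at the last of these distances.

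The mean input difference over the segments, +N minus −N, was 0.56 on the H3 arrays, with 0.02 on slide 1 and 1.10 on slide 2. On the H3K4Me3 arrays it was 0.61, with 0.07 on slide 1 and 1.14 on slide 2. No segment was called by limma, in a fit where 0.0% of bins were called, with 0 (H3 arrays) and 1 (H3K4Me3 arrays) bins at an unadjusted p under 0.05, and the exact permutation p of both means was 0.333, the smallest possible. Without +N replicate 1 the means were 1.11 and 1.14, and 6 and 5 segments were called, where 17.5% and 9.52% of bins were, with the single +N array left assumed to vary like the −N arrays. Without +N replicate 2 they were 0.01 and 0.07, with 0 called. The ChIP channel moved with the input, by 0.59 on the H3 arrays and 0.63 on the H3K4Me3 arrays, and the ratios of the segments differed by 0.03. The part of the input in the ratio differences of single windows and genes was not tested.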

How the data were processed

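ChIP-on-chip was performed with antibodies against H3 and H3K4Me3 in −N and +N cells, on 2 arrays per group and 8 in all. Per the labels, red held ChIP DNA and green input DNA on every array, without a dye swap, so that dye bias cannot be told from enrichment, although the study's text calls the input reciprocally labelled. Amplification of the ChIP DNA by T7 RNA polymerase preceded labelling. As intensity, the authors deposited processed signals of Agilent Feature Extraction 10.7.3.1 (per the file headers), background-subtracted, detrended and dye-normalized by a linear factor. The log2 values in a table deposited by the authors were log2 of red over green of the same signals, with column medians from −0.62 to 0.13, and were used as an alternative. The genome build of the probe coordinates is not given in the sources used here. Probe length and reference GC content were compared at the given positions, and chromosome I beyond position 3750000 did not match ASM294v3, so that it was left without annotation.

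Probes marked as outliers on any array (5402, 12.7%) were left out. Log2 of red over green was centred on each array's nuclear median. Bins of 50 kb (20 or more probes), windows of 5 probes and gene 5′ ends (250 bp upstream to 750 bp downstream) were each fitted genome-wide per antibody by lmFit and eBayes of limma 3.58.1 (R 4.3.3), with two-sided p-values, Benjamini-Hochberg adjustment and a threshold of 0.05, and all other steps used Python 3.11.15. "Called" means past this threshold. In simulated data the fits called 98% or more of true 2-fold differences for H3 (windows, genes and bins) and for H3K4Me3 bins. They called 31.0% of H3K4Me3 windows and 28.0% of H3K4Me3 genes. The simulated noise was independent, without a slide effect, and equal for all features of a kind (SD 0.0598 for H3K4Me3 bins). The H3K4Me3 SDs of II left were 0.36 (−N) and 0.73 (+N), so these shares do not carry over to it. Nothing in the labels says that the replicates were separate cultures, although a legend of the study speaks of biological replicates. The p-values of fits without the block measure the spread between 2 arrays per group. The number of arrays limits the precision. The share of all probes well above background in the ChIP channel was 44.0% to 88.4% on slide 1 and 91.1% to 98.3% on slide 2. Same-numbered arrays shared a slide, and their deviations from the group means correlated across probes with r = 0.60 (H3K4Me3) and 0.12 (H3). Fits with the replicate number as a block and differences within each slide are therefore also given. The block leaves a single residual degree of freedom per feature. Its p-values thus rest largely on the spread pooled over all features and look firmer than so few arrays allow. Genes and windows were named by rule: the highest and lowest window of each segment, the 3 genes or windows with the largest consistent increase or decrease, the 3 highest and lowest genes, every gene called, and members of the gene lists (nitrogen starvation, iron uptake, phosphate, thiamine, hexose transport, pheromone response, membrane transport, *wtf*, *mug* and tRNA genes). The segments, lists and rules were chosen with earlier results of these data known. Alternatives were other background corrections, normalizations, probe filters, bounds, comparison levels and summaries, the block, and leaving out each array. The normexp alternative was run on median signals, since mean signals were not among the columns used.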

Additional observations from a re-analysis of the deposited data

How the results depend on the processing

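The lower H3K4Me3 of the 4 segments of chromosomes I and II kept its direction and its call under every alternative that gave a value, with ranges of −1.92 to −1.23 (I left), −1.75 to −0.90 (I right), −2.56 to −1.36 (II left) and −1.67 to −0.42 (II right). The mean level over all 6 segments, −0.95, was −0.68 with normexp, −0.37 without dim probes (a mean without I left and II left, which had too few bright probes to be checked this way), −1.16 at 40 to 90 kb, −1.12 with the right end of chromosome II set at the reference end (an alternative chosen after the data were seen) and −1.47 over chromosomes I and II only. III left turned to −0.10 without dim probes and to −0.40 at 40 to 90 kb. For H3, 4 segments were called, and 2 were without dim probes, with medians over probes, or at 40 to 90 kb, against 6 at 60 to 110 kb and 3 with normexp, which lost III right. H3 of III right turned to −0.010 without dim probes and −0.0074 with medians, I right to 0.25 at 40 to 90 kb, and II right to −0.0069 at 40 to 90 kb and −0.087 with the reference end. Leaving out each array in turn gave mean levels of 0.00 to 0.07 with 3 to 4 segments called for H3 and −1.003 to −0.89 with 4 to 5 called for H3K4Me3. The H3 call of III right was lost whichever array was left out. The cause was not tested for these changes, except that fewer probes or other probes enter where a filter or bound is altered.

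For +N minus −N, the mean over segments of 0.03 for H3 was −0.071 within slide 1 and 0.13 within slide 2, and −0.05 to 0.10 when an array was left out. That for H3K4Me3 (0.03) was −0.23 with normexp and −0.08 to 0.14 when an array was left out, with 0 to 1 segments called, which was II left, at −0.69 without +N replicate 1 and 0.35 without +N replicate 2. With the replicate number as a block the means stayed at 0.03 with 0 segments called, while H3K4Me3 windows called in the segments went from 0 to 42 and genes from 0 to 5. H3 windows called ranged from 0 to 7 when an array was left out, with 7 without +N replicate 2, all lower in +N, where the single +N array was assumed to vary like the −N arrays, and H3K4Me3 windows and genes stayed at 0. Input differences ranged from 0.01 to 1.11 with 0 to 6 segments called on the H3 arrays and from 0.07 to 1.14 with 0 to 5 called on the H3K4Me3 arrays. Low ChIP signal on slide 1 limits how far low H3K4Me3 ratios can be resolved there.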

Other observations

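Of the gene lists, those for phosphate genes, thiamine genes, the pheromone response and *wtf* genes had no member in the 5 annotated segments. They had 3, 5, 10 and 24 members over 200 kb from ends. The segments held 90 protein-coding genes against 3991 there, so lists of this size would have few or no members in them at the same rate. Of 171 tRNA genes, 1 (for histidine) lay in a segment, III left. Long noncoding RNA genes numbered 33 in I left, 30 in II left, 39 in II right, 27 in III left and 30 in III right, against 28.2 per 50 kb over 200 kb from ends, so that the segments with the fewest protein-coding genes and the lowest H3K4Me3 were annotated with about as many noncoding RNAs as the interior.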
